A study of Mus musculus with 4 samples.

Results

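The genes described here are 9 regulators of DNA methylation: the DNA methyltransferases Dnmt1, Dnmt3a and Dnmt3b, the maintenance cofactor Uhrf1, the dioxygenases Tet1, Tet2 and Tet3, and the methyl-CpG binding proteins Mbd1 and Mbd2. They are taken by a list of names that sets no threshold on a value, and each was found among the 55421 genes listed for each library by its Ensembl identifier. All 9 passed the filter on low counts. The RNA was total RNA of dissociated prefrontal cortex (PFC) from WT C57BL/6 mice at postnatal day 0, grown in neurobasal medium with B27 for 10 days. The medium of 2 libraries contained FGF2 (fibroblast growth factor 2) at 5 ng/mL, and that of the other 2 libraries contained no FGF2. The comparison asks how FGF2 alters transcription in these mixed primary cultures.

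Methylation of cytosine in CpG dinucleotides is laid down by Dnmt3a and Dnmt3b on unmethylated DNA and copied after replication by Dnmt1, which Uhrf1 recruits to hemimethylated sites. The Tet enzymes oxidise 5-methylcytosine to 5-hydroxymethylcytosine, a mark that is abundant in neurons, and so open the way to its removal. Mbd1 and Mbd2 bind methylated CpG and recruit repressor complexes, of which NuRD is the partner of Mbd2. Dnmt3a remains expressed in postnatal neurons, whereas Dnmt1 and Uhrf1 are best known from dividing cells. Methylation itself was not measured in these libraries, which give only the RNA of the genes that act on it.

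Counts on genes totalled between 9166432 and 10799886 per library. The labels number the libraries 1 and 2 in each group, and the study's methods give biological replicates for some human samples and technical replicates for the others. Separate cultures are thus not established for these mouse libraries, and the p-values may measure technical variation alone. The cultures were mixed, and the markers of other cell types moved between the groups. The 10 pan-neuronal markers summed to between 4027 and 4058 CPM (a gene's counts relative to the library total after TMM scaling) without FGF2 and to between 2948 and 2982 CPM with FGF2, with 8 called lower and 1 called higher. The 8 astrocyte markers summed to between 7498 and 7546 CPM without FGF2 and to between 12342 and 12460 CPM with FGF2, with 7 called higher and 0 lower. The oligodendrocyte lineage markers, of which all 8 tested were called higher, summed to between 547 and 557 CPM without FGF2 and to between 1792 and 1803 CPM with FGF2. Microglial markers (at most 17.7 CPM in sum) and endothelial markers (at most 9.92 CPM in sum, Cldn5 at 0 counts in every library) were low.

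Of the 9 genes, 5 fell with FGF2 (Dnmt1, Uhrf1, Dnmt3a, Tet1 and Tet3), 2 rose (Mbd1 and Mbd2) and 2 were not called (Dnmt3b and Tet2). The quasi-likelihood test of edgeR was used, with p-values adjusted by the Benjamini-Hochberg method over 17144 genes and a threshold of 0.05, and it called 40.5% of all tested genes, 19.9% as lower and 20.7% as higher with FGF2. Among tested genes with a mean of at least 10 CPM, as 8 of the 9 have, 51% were called. Both libraries with FGF2 lay above both others in 33.6% of all tested genes and below both in 33.4%, so groups without overlap were common. The median absolute log2 fold change was 0.30 over the 9 genes and 0.28 over all tested genes, and Mbd1 exceeded 89.8% of all tested genes in the size of its change. In bulk RNA, fewer cells of a type and less RNA per cell cannot be told apart, and the part of the shift in cell type markers in each change was not tested. The calls of the 5 lower genes and of Mbd1 were kept under each of the alternatives tried, whereas that of Mbd2 was not.

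**Figure D1:**
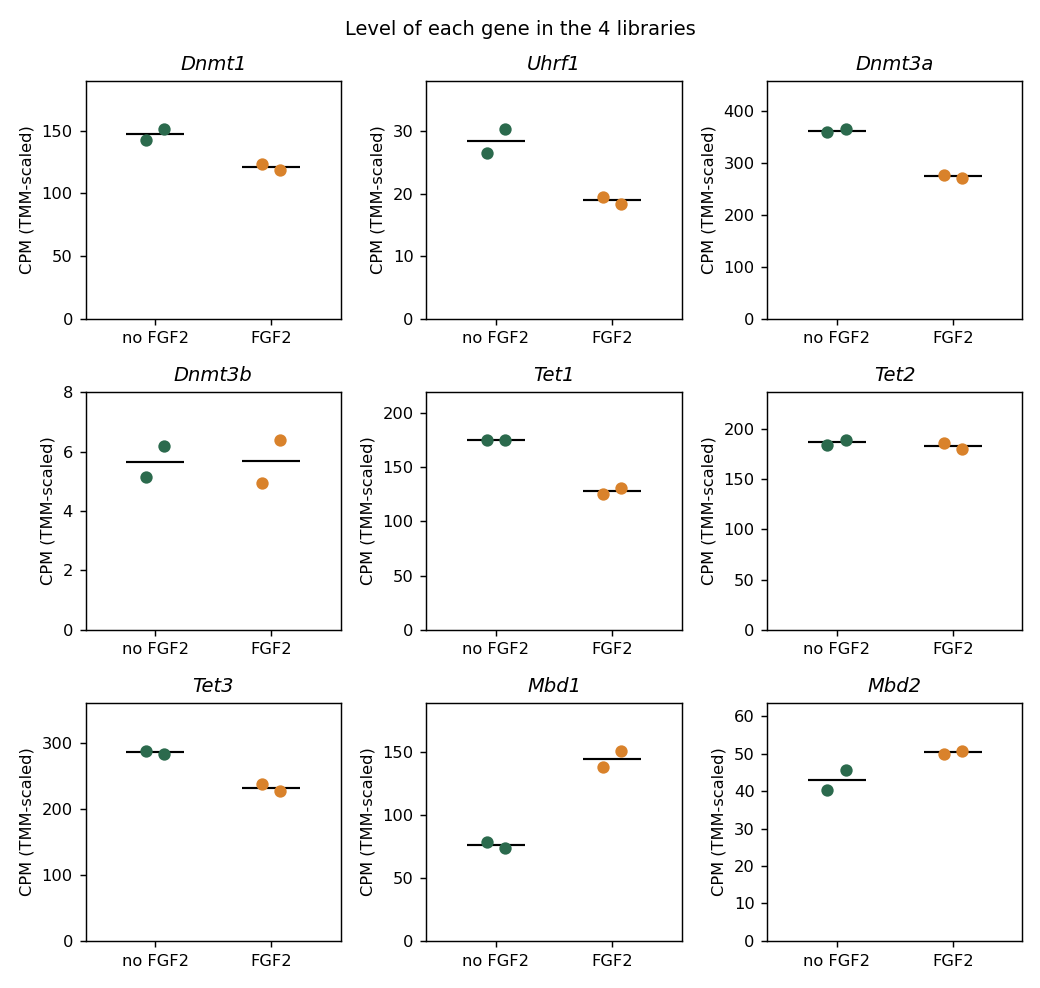
Level of each of the 9 genes in each library, in CPM after TMM scaling, on axes that start at 0. Points are libraries, 2 per group, and lines are group means. The groups do not overlap for Dnmt1, Uhrf1, Dnmt3a, Tet1 and Tet3, which are lower with FGF2, and for Mbd1 and Mbd2, which are higher, whereas the points of Dnmt3b and Tet2 overlap. Of all tested genes, 33.4% were lower and 33.6% higher with FGF2 without overlap.

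The maintenance pair fell with FGF2. Dnmt1, which copies the methylation pattern onto new DNA strands, lies on chromosome 9 of mm10 from 20907209 to 20959888. It had 123 and 119 CPM in replicates 1 and 2 with FGF2, and 142 and 152 CPM without FGF2. Both libraries with FGF2 were thus below both libraries without FGF2. Its level fell by 0.28 on the log2 scale (standard error 0.06, edgeR adjusted p = 9.77e-06), that is to 0.82 of the level without FGF2. Uhrf1, which binds hemimethylated CpG and brings Dnmt1 to it, lies on chromosome 17 from 56303321 to 56323486. It had 19.5 and 18.3 CPM with FGF2 and 26.5 and 30.4 CPM without FGF2, again without overlap. Uhrf1 had the largest fall of the 9 genes, by 0.59 on the log2 scale (standard error 0.13, edgeR adjusted p = 1.76e-05), to 0.66 of the level without FGF2 with a 95% interval from 0.56 to 0.79. Only 9.56% of all tested genes had a lower log2 fold change than Uhrf1. The gene model Gm5648 is 98.3% identical to Uhrf1 over 1590 bases, and pairs that fit both equally well would be removed by the mapping quality filter, so that the counts of Uhrf1 are uncertain. Gm5648 itself had at most 2 counts in a library.

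Dnmt1 and Uhrf1 also share a sequence feature near a start of transcription. RefSeq gives 3 start windows of 300 bases for Dnmt1 and 2 for Uhrf1, each reaching from 250 bases before the start to 50 bases after it. The motif of E2F, the factor family of the S phase programme, was searched in 2 spellings, TTTCGCGC and TTTGGCGC, on both strands. At least 1 of them was found in 0.813% of all 32851 windows in the reference, in 1 window of Dnmt1 and in 1 of Uhrf1, and in none of the other 10 windows that the 7 listed members have (Mbd1 and Mbd2 are not in the table). The window of Dnmt1 holds both spellings, at bases 32 to 39 and 284 to 291, and that of Uhrf1 holds TTTCGCGC at bases 66 to 73, counted from the window's 5′ end. No E2F match overlapped a match of another motif that was searched. The starts of these 2 windows lie 7265 bases (Dnmt1) and 992 bases (Uhrf1) inside the GENCODE gene. Each window holds 33 CpG, more than 91.4% of all windows, and both spellings contain CpG. The share of windows with a match was not counted among windows of like CpG content. A match describes the letters and is not a site of binding. The counts were made per gene and do not tell which start was used. Both windows are shown because they belong to the pair that fell together, with the E2F motifs in capitals.
Dnmt1, GRCm38.p6 chr9:20952574-20952873, minus strand: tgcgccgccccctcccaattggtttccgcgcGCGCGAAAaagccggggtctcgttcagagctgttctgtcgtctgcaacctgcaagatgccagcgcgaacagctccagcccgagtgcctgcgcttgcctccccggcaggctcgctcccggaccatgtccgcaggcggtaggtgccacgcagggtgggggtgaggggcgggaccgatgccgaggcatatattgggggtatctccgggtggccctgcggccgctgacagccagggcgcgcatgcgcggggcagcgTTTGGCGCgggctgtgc
Uhrf1, GRCm38.p6 chr17:56304063-56304362, plus strand: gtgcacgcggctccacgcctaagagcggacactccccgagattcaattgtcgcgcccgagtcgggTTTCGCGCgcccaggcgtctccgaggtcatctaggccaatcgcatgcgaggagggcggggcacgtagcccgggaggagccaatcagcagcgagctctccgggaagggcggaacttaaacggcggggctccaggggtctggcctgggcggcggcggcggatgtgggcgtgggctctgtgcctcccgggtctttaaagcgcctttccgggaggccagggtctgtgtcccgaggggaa

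The cell cycle genes are given beside this pair, since both genes act on newly replicated DNA. Of 20 cell cycle and replication genes, all of which were tested, 12 fell, 1 rose and 7 were not called, with a median log2 fold change of -0.46, against a median of -0.0008 over all tested genes. Top2a, the topoisomerase of dividing cells, had 59.4 and 56.0 CPM with FGF2 and 86.5 and 85.0 CPM without FGF2, a fall by 0.57 on the log2 scale (edgeR adjusted p = 1.39e-12). Pcna, the sliding clamp of the replication fork, fell by 0.38 (edgeR adjusted p = 1.57e-04). Aurkb, a mitotic kinase, had the largest fall, by 1.28 (edgeR adjusted p = 9.76e-06), from 7.83 ± 0.30 to 3.21 ± 0.49 CPM (SD, n = 2). Mcm7, a subunit of the replicative helicase, rose instead by 0.32 on the log2 scale (edgeR adjusted p = 9.09e-04). E2f1 had 7.16 and 7.12 CPM with FGF2 and 9.33 and 10.8 CPM without FGF2, and its log2 fold change of -0.50 was close to the threshold (edgeR adjusted p = 0.0421). Mki67, the common marker of proliferating cells, was not called, at 63.4 ± 3.09 CPM with FGF2 and 67.9 ± 1.81 CPM without FGF2 (SD, n = 2, edgeR adjusted p = 0.331). With DESeq2, 7 of the 20 genes were lower and 0 higher, and E2f1 and Mcm7 were no longer called. E2f1 was not called in any of the fits that left out a library (adjusted p from 0.0669 to 0.301), and Mcm7 was not called when replicate 2 without FGF2 was left out (0.0735). The part of the cell cycle genes' shift in the fall of Dnmt1 and Uhrf1 was not tested.

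The de novo methyltransferases differed in level and in call. Dnmt3a lies on chromosome 12 from 3806007 to 3914443 and was the most highly counted of the 9 genes, with 276 and 271 CPM with FGF2 and 358 and 365 CPM without FGF2. It fell by 0.40 on the log2 scale (standard error 0.04, edgeR adjusted p = 4.54e-20), to 0.76 of the level without FGF2 (95% interval from 0.71 to 0.80). The antisense gene Dnmt3aos shares 133 exonic bases with Dnmt3a and had 0 counts in every library. Dnmt3b, which is known mainly from early embryos, lies on chromosome 2 from 153649450 to 153687730 and had 4.96 and 6.41 CPM with FGF2 and 5.14 and 6.19 CPM without FGF2. These values rest on 45 to 67 counts per library, and the groups overlapped. Its log2 fold change was 0.0081 (edgeR adjusted p = 0.984), and the 95% interval of the fold reached from 0.71 to 1.42, so that a change of the size seen for Dnmt3a was within it and was not detectable at this depth. The sign of the value for Dnmt3b turned under other scalings and with a library left out.

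**Figure D2:**
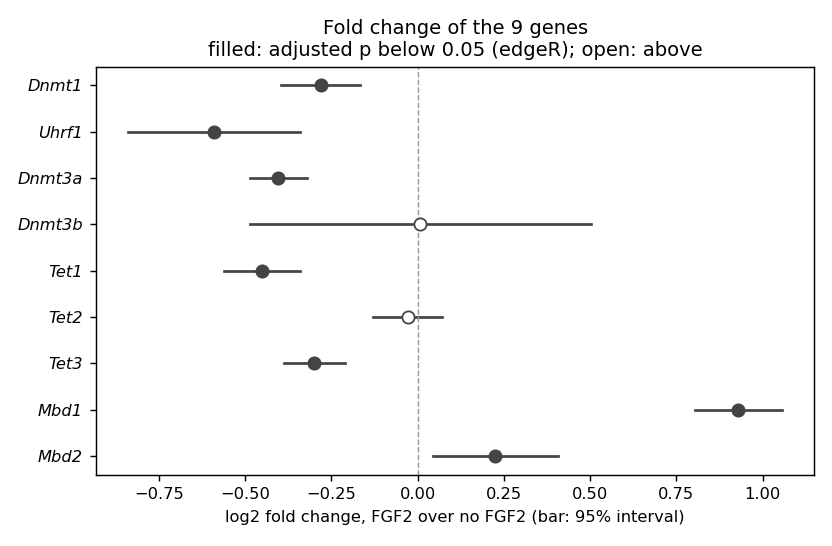
Log2 fold change of the 9 genes, FGF2 over no FGF2, on the horizontal axis, with 95% intervals as bars from the edgeR fit of all 4 libraries. Filled points had an adjusted p below 0.05. The points run from -0.59 for Uhrf1 to 0.93 for Mbd1, the bar of Dnmt3b is the widest, and that of Tet2 reaches from -0.13 to 0.07.

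Tet1 and Tet3 fell with FGF2 while Tet2 was not called. Tet1 lies on chromosome 10 from 62804570 to 62908996 and had 125 and 131 CPM with FGF2 and 175 and 175 CPM without FGF2. The level of Tet1 fell by 0.45 on the log2 scale (standard error 0.06, edgeR adjusted p = 8.37e-15), to 0.73 of that without FGF2. Tet3, on chromosome 6 from 83362373 to 83459084, had 237 and 228 CPM with FGF2 and 288 and 284 CPM without FGF2. This was a fall by 0.30 on the log2 scale (standard error 0.05, edgeR adjusted p = 3.51e-10), to 0.81 of the level without FGF2. For both genes the groups did not overlap. Tet2, on chromosome 3 from 133463679 to 133545139, had 186 and 180 CPM with FGF2 and 184 and 189 CPM without FGF2, so that the groups overlapped. Its log2 fold change was -0.03 (standard error 0.05, edgeR adjusted p = 0.704). The 95% interval of its fold, from 0.91 to 1.05, did not reach the folds of Tet1 or Tet3. The antisense gene Gm42567 shares 43 exonic bases with Tet2 and had at most 5 counts in a library.

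The ratio of the counts of 2 Tet genes within a library does not depend on the scaling between libraries. The count ratio of Tet1 to Tet2 was 0.672 and 0.727 with FGF2 and 0.949 and 0.925 without FGF2. The count ratio of Tet3 to Tet2 was 1.28 and 1.26 with FGF2 and 1.57 and 1.5 without FGF2. Both ratios were lower in each library with FGF2 than in each library without FGF2. An exact permutation test of 2 libraries against 2 cannot give a two-sided p below 0.333, which is what it gave for both.

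Tet1 and Tet3 carry a CXXC zinc finger, which binds unmethylated CpG, whereas the CXXC finger that belongs to Tet2 is encoded by the separate gene Cxxc4. Cxxc4 was not called (log2 fold change -0.10, edgeR adjusted p = 0.389). The RefSeq start windows of the 3 genes are shown to compare their CpG content, with each CpG in capitals. The window of Tet2 holds 57 CpG in 300 bases, more than 99.8% of all windows, whereas that of Tet3 holds 22 and that of Tet1 holds 17, against a median of 7 over all windows. These windows belong to 1 RefSeq start per gene, which for Tet1 lies 21672 bases and for Tet3 17406 bases inside the GENCODE gene.
Tet1, GRCm38.p6 chr10:62887275-62887574, minus strand: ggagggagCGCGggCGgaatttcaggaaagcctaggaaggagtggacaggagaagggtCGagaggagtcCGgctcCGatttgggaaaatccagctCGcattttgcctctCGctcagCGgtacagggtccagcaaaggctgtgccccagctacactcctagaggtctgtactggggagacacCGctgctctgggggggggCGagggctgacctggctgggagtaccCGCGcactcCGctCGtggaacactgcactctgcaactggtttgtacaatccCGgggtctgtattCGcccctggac
Tet2, GRCm38.p6 chr3:133544341-133544640, minus strand: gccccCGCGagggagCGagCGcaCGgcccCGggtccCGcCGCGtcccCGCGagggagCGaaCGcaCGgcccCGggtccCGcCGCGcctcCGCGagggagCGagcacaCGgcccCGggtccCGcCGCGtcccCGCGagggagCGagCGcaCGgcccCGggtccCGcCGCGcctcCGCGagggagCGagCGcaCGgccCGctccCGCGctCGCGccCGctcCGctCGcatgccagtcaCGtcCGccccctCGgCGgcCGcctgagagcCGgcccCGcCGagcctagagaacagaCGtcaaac
Tet3, GRCm38.p6 chr6:83441629-83441928, minus strand: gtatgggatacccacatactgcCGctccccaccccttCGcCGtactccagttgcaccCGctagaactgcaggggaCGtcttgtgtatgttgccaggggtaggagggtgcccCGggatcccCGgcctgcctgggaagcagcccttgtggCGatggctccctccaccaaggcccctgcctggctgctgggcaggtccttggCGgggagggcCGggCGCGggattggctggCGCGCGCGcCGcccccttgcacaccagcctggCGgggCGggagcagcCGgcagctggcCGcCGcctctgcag

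The CpG content of the windows did not sort the genes by their call. Among genes that fell, the richest window of Dnmt3a holds 47 CpG, and the E2F-motif windows of Dnmt1 and Uhrf1 hold 33 and 33. Among genes that were not called, the window of Dnmt3b holds 30. The window of Dnmt1 at the 5′ end of the GENCODE gene holds only 2. The other motifs searched were those of the ETS factors (CCGGAAGT), which act downstream of FGF receptors, the CCAAT box (CCAAT) and the GC box (GGGCGG), on both strands. The ETS spelling was in none of the 12 windows of the members and in 3.89% of all windows. Only this spelling was searched, and at that share 12 windows may well hold no match, so nothing is read from its absence. The CCAAT box was in windows of Dnmt1, Uhrf1 and Tet3 and in 37.4% of all windows. The GC box was in 35.7% of all windows and in each member window except the Dnmt1 windows without an E2F motif. The GC content of the member windows ran from 51.3% to 82.3%, against a median of 52.7% over all windows.

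To compare levels between genes, CPM was divided by the length of the gene's merged exons in kb. Without FGF2 the order was Dnmt3a (21.7 ± 0.32 CPM per kb), Dnmt1 (19.9 ± 0.91), Tet3 (17.1 ± 0.18), Mbd2 (13.4 ± 1.18), Mbd1 (11.3 ± 0.53), Tet1 (11.3 ± 0.02), Tet2 (11.1 ± 0.22), Uhrf1 (6.67 ± 0.65) and Dnmt3b (1.11 ± 0.15), each as mean and SD of 2 libraries. Mbd1, Tet1 and Tet2 did not differ beyond their spread there. With FGF2 the first place was taken by Mbd1 (21.6 ± 1.37 CPM per kb), followed by Dnmt3a (16.4 ± 0.23), Dnmt1 (16.4 ± 0.40) and Mbd2 (15.7 ± 0.18). Dnmt3a and Dnmt1 did not differ beyond their spread with FGF2. Tet3 (13.9 ± 0.40 CPM per kb), Tet2 (10.9 ± 0.24), Tet1 (8.29 ± 0.27), Uhrf1 (4.44 ± 0.20) and Dnmt3b (1.11 ± 0.20) followed in this order. With the longest transcript as the length, Mbd1 moved from rank 6 to rank 1, Dnmt1 ranked 3 without and 5 with FGF2, and Dnmt3b and Uhrf1 kept the last places.

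Summed per kb, the 3 methyltransferases were at 34.3 and 33.7 CPM per kb with FGF2 and at 41.8 and 43.7 without FGF2, a ratio of 0.79. The 3 Tet genes summed to 33.3 and 32.8 CPM per kb with FGF2 and to 39.5 and 39.6 without FGF2, a ratio of 0.84. Thus the sum of the writers and the sum of the Tet genes were both lower in each library with FGF2, and the writers stood at 1.03 times the Tet genes with FGF2 and 1.08 times without FGF2. Within the Tet family, Tet2 made up 33.1% and 32.6% of the sum with FGF2 and 27.6% and 28.4% without FGF2. The share of Tet1 was 24.3% and 25.8% with FGF2 and 28.6% in both libraries without FGF2. The 2 Mbd genes went the other way, from 24.3 and 25.2 CPM per kb without FGF2 to 36.1 and 38.3 with FGF2.

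**Figure D3:**
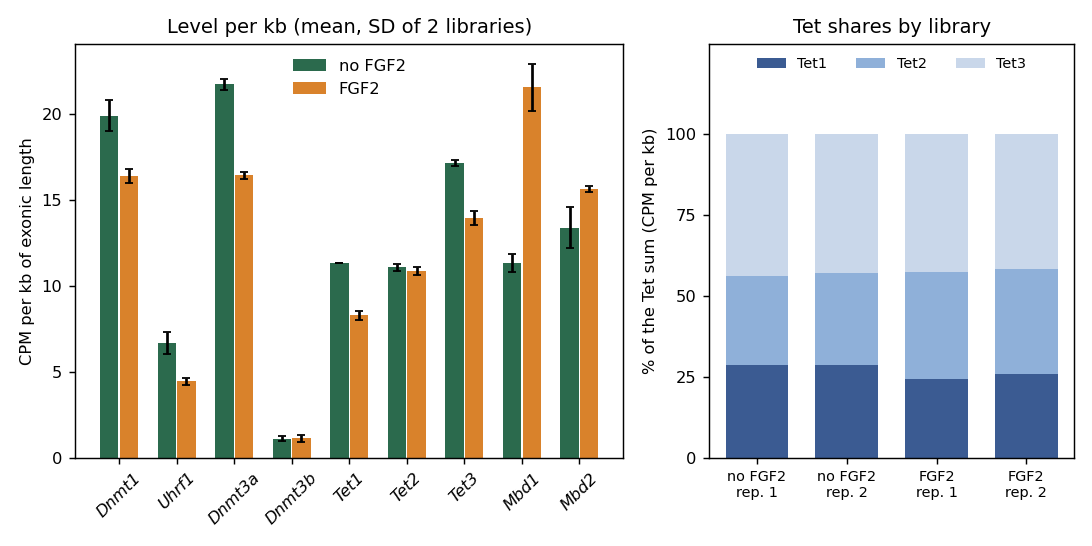
Left, level of each gene in CPM per kb of merged exons, as mean and SD of 2 libraries per group. Right, share of each Tet gene in the sum of the 3, in % per library. Mbd1 rises from 11.3 to 21.6 CPM per kb while Dnmt3a, Dnmt1 and Tet3 are lower with FGF2, and the share of Tet2 is larger in each library with FGF2.

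The methyl-CpG binding genes rose, Mbd1 by far the more. Mbd1 lies on chromosome 18 from 74267605 to 74282732. It had 138 and 151 CPM with FGF2 and 78.5 and 73.5 CPM without FGF2, and each library with FGF2 was above each library without FGF2. Its log2 fold change was 0.93 (standard error 0.06, edgeR adjusted p = 4.36e-45), a 1.90-fold rise with a 95% interval from 1.74 to 2.08. Of all tested genes 93.4% had a lower log2 fold change. Mbd1 differs from the other binding proteins in that it also has CXXC fingers, so that forms of it can bind unmethylated CpG, and the 6 annotated transcripts of the gene are not told apart by the counts.

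Mbd2, the subunit that brings NuRD to methylated CpG, lies on chromosome 18 from 70568189 to 70626131. It had 49.9 and 50.7 CPM with FGF2 and 40.4 and 45.7 CPM without FGF2. Although the groups did not overlap, the log2 fold change was only 0.23 (standard error 0.09, edgeR adjusted p = 0.0370), with a 95% interval of the fold from 1.03 to 1.32. This call was lost with DESeq2 (adjusted p = 0.289), with upper quartile scaling, with library totals alone and in 3 of the 4 fits that left out a library. Over those 4 fits the log2 fold change ranged from 0.13 to 0.31. The count ratio of Mbd1 to Mbd2 was 2.77 and 2.98 with FGF2 and 1.95 and 1.61 without FGF2. This ratio was higher in each library with FGF2 than in each library without FGF2, and the two-sided exact permutation p was the smallest that the design allows (0.333).

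Partners of the maintenance step were mixed. Of 7 genes, 3 fell (Usp7, Zfp57 and Trim28), 1 rose (Uhrf2) and 3 were not called, with a median log2 fold change of -0.20. Uhrf2, the paralogue of Uhrf1 that can bind 5-hydroxymethylcytosine, had 84.0 and 87.8 CPM with FGF2 and 69.6 and 66.3 CPM without FGF2. Its log2 fold change was 0.34 (edgeR adjusted p = 2.73e-05), opposite in sign to that of Uhrf1. Usp7, the deubiquitinase that stabilises Dnmt1 and Uhrf1, fell by 0.25 on the log2 scale (edgeR adjusted p = 4.27e-07), from 256 ± 1.4 to 215 ± 2.87 CPM (SD, n = 2). Zfp57 and Trim28, which hold methylation at imprinted regions, fell by 0.23 and 0.20 (edgeR adjusted p = 0.00550 and 1.59e-04), and the call of Zfp57 was lost with DESeq2 (adjusted p = 0.0980). When replicate 1 without FGF2 was left out, neither was called (adjusted p = 0.102 for Zfp57 and 0.258 for Trim28). Hells, the chromatin remodeller of methylated repeats, ranged from 4.85 to 10.5 CPM with overlap between the groups and was not called, but it was called lower when replicate 2 with FGF2 was left out (log2 fold change -0.90, adjusted p = 0.00547). In the list of 9 genes made up of further readers and the cofactor Dnmt3l, 8 were tested, 1 rose, 1 fell and 6 were not called, and the median was 0.0027. The gene that rose was Zbtb33, the zinc finger reader Kaiso, at 0.40 on the log2 scale (edgeR adjusted p = 5.72e-05). Dnmt3l, the cofactor of germ cells, had 1 count in a single library.

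Within NuRD, the repressor complex that Mbd2 joins, the exchangeable ATPases changed in opposite directions. Of 12 subunits, 3 rose, 4 fell and 5 were not called, with a median of -0.02. With DESeq2, 1 of the 12 was higher and 3 were lower. Chd4 had 402 and 385 CPM with FGF2 and 298 and 314 CPM without FGF2, a rise by 0.36 on the log2 scale (edgeR adjusted p = 2.48e-17). Chd3 had 345 and 325 CPM with FGF2 and 560 and 570 CPM without FGF2, and Chd5, the ATPase of neurons, had 130 and 119 CPM with FGF2 and 229 and 239 CPM without FGF2. These were falls by 0.75 and 0.91 on the log2 scale (edgeR adjusted p = 4.90e-81 and 6.13e-65). The 10 pan-neuronal markers ranged from -1.10 to 0.38 on the log2 scale, with a median of -0.43, and their part in the falls of Chd3 and Chd5 was not tested. The deacetylases also split, with Hdac1 at 0.26 (edgeR adjusted p = 0.00998, lost with DESeq2 and without replicate 2 of either group) and Hdac2 falling by 0.29 (edgeR adjusted p = 6.02e-05). The smallest called change of a subunit was that of Mta2, at 0.17 (edgeR adjusted p = 0.0285), which was lost with DESeq2 (0.229), with upper quartile scaling, with library totals alone and in 3 of the 4 fits that left out a library.

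**Figure D4:**
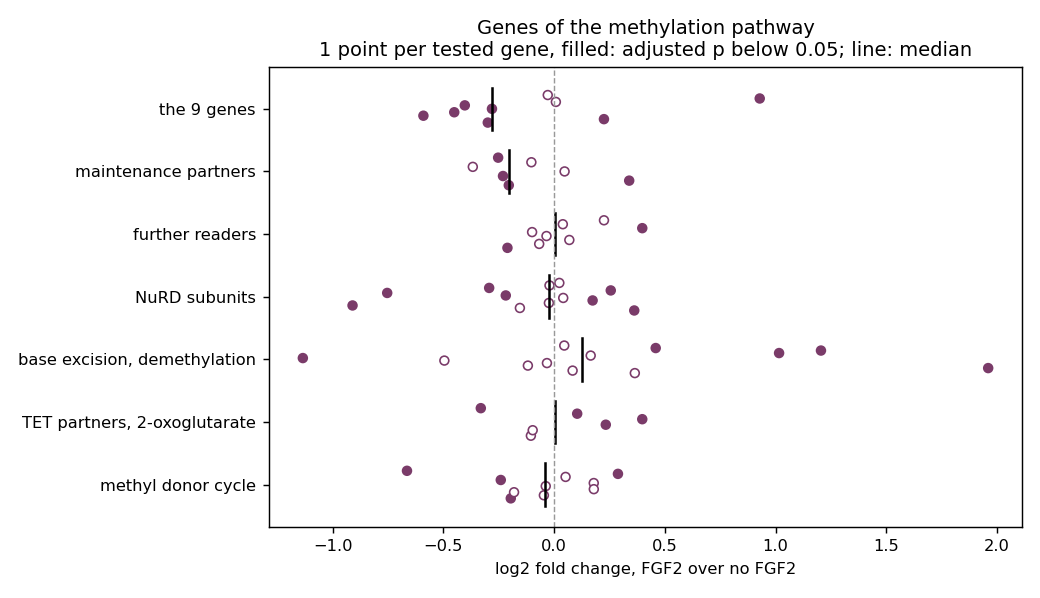
Log2 fold change, FGF2 over no FGF2, of each tested gene of the methylation pathway, with 1 point per gene and 1 row per list; the vertical spread within a row only separates points. Filled points had an edgeR adjusted p below 0.05 and black lines are medians. The medians of the 6 further lists lie between -0.20 and 0.12, and the highest point is Gadd45b at 1.96.

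Downstream of the Tet enzymes, oxidised cytosines are cut out by base excision repair. Of 12 genes of this step, 4 rose, 1 fell and 7 were not called, with a median of 0.12. Tdg, the glycosylase that removes the oxidised bases, was not called, with 60.1 ± 1.48 CPM with FGF2 and 65.2 ± 3.26 CPM without FGF2 (SD, n = 2, edgeR adjusted p = 0.25). Gadd45b, a stress-inducible gene linked to active demethylation in neurons, had 18.5 and 14.1 CPM with FGF2 and 4.85 and 3.51 CPM without FGF2. Its log2 fold change of 1.96 (standard error 0.21, edgeR adjusted p = 3.52e-20) was the highest in the pathway lists. For Gadd45a the log2 fold change was 1.02 (edgeR adjusted p = 7.46e-04, lost with DESeq2 and when replicate 2 without FGF2 was left out) on 31 to 69 counts per library, and Gadd45g was not called. Parp1, the sensor of strand breaks, rose 1.37-fold (edgeR adjusted p = 2.14e-10). The glycosylases Neil2 and Neil3 had log2 fold changes of 1.21 and -1.13, on at most 42 counts per library, and neither was called with DESeq2. Neil2 was also lost when replicate 2 without FGF2 was left out, and Neil3 in 3 of the 4 fits that left out a library.

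The supply of cofactors changed little in common. The Tet enzymes need 2-oxoglutarate, and of 7 Tet partners and genes of its supply 6 were tested, with 3 higher, 1 lower and a median of 0.0039. Idh2, an NADP-dependent mitochondrial enzyme that makes 2-oxoglutarate, rose 1.32-fold (edgeR adjusted p = 9.22e-08), and Idh1, its cytosolic counterpart, rose 1.18-fold (edgeR adjusted p = 2.80e-04, and 0.134 when replicate 2 without FGF2 was left out). Idh3a, a subunit of the enzyme that makes 2-oxoglutarate in the citric acid cycle, fell by 0.33 (edgeR adjusted p = 1.98e-06). Ogt, the glycosyltransferase that binds Tet proteins, had the smallest called change, 0.10 on the log2 scale (edgeR adjusted p = 0.0108, lost with DESeq2, with upper quartile scaling and in 3 of the 4 fits that left out a library). Of 10 genes of the methyl donor cycle, 3 fell and 1 rose, with a median of -0.04. The gene that rose was Mat2b, the regulatory partner of Mat2a, at 0.29 on the log2 scale (edgeR adjusted p = 0.0188), a call that was lost with DESeq2 (0.206) and in each of the 4 fits that left out a library (0.0520 to 0.111). Mthfd1, a folate enzyme, fell by 0.66 (edgeR adjusted p = 6.14e-15) and Mat2a, which makes the methyl donor S-adenosylmethionine, fell by 0.24 (edgeR adjusted p = 1.97e-07). Mtr, the methionine synthase, had the smallest called change of this list, -0.20 (edgeR adjusted p = 0.0416), which was lost with DESeq2, with no filter on low counts and in 3 of the 4 fits that left out a library.

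Germline genes that promoter methylation keeps silent in somatic tissue were near the limit of detection in both groups. Of 11 such genes, 9 had 0 counts in every library, where 3 counts, the limit that a count of 0 allows, are 0.278 to 0.327 CPM, by counting error only. Dazl had at most 4 counts in a library. Ddx4 was the only one tested, and it was not called, on 23 and 27 counts in the FGF2 group against 16 and 25 in the other group (log2 fold change 0.46, edgeR adjusted p = 0.407). A difference between the cultures in these genes was not detectable at this depth.

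**Figure D5:**
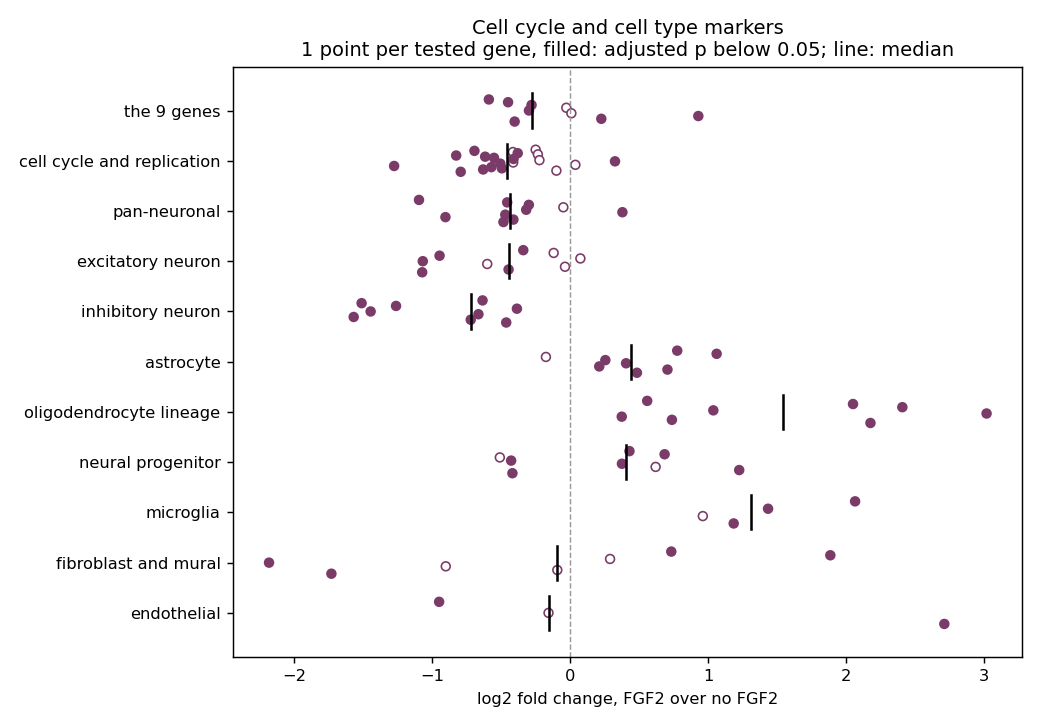
Log2 fold change, FGF2 over no FGF2, of each tested gene of the cell cycle list and of the cell type marker lists, with the 9 methylation genes in the top row. Filled points had an edgeR adjusted p below 0.05, black lines are medians, and the vertical spread only separates points. The medians are -0.28 for the 9 genes, -0.46 for the cell cycle, -0.43 for pan-neuronal, 0.44 for astrocyte and 1.54 for oligodendrocyte lineage genes.

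The remaining marker lists are given for the cells that the cultures could hold. Excitatory and inhibitory neuron markers had 5 of 9 and 9 of 9 genes called lower and 0 higher, with medians of -0.45 and -0.72. Neural progenitor markers had 4 called higher and 2 lower of 8, microglial markers 3 higher of 4 tested, fibroblast and mural markers 2 higher and 2 lower of 7 tested, and endothelial markers 1 higher and 1 lower of 3 tested. With FGF2 over no FGF2, the ratio of the summed CPM was 0.73 for the pan-neuronal markers, 0.79 for the cell cycle genes and 1.65 for the astrocyte markers. It was 0.73 for excitatory and 0.59 for inhibitory neuron markers, 1.63 for neural progenitor and 3.25 for oligodendrocyte lineage markers. Such a ratio gives most weight to the most highly counted genes of a list. Among the neural progenitor markers 1 gene reached 15441 counts in a library. The log2 fold changes of these markers ran from -0.51 to 1.23, with Vim the highest and a median of 0.40, so 1.63 does not describe the list as a whole. For the low lists the ratio of the summed CPM was 2.43 (microglial), 1.22 (fibroblast and mural) and 1.31 (endothelial). Beside these, the folds of the 9 genes were 0.66 for Uhrf1, 0.73 for Tet1, 0.76 for Dnmt3a, 0.81 for Tet3, 0.82 for Dnmt1, 0.98 for Tet2, 1.01 for Dnmt3b, 1.17 for Mbd2 and 1.90 for Mbd1. The part of these shifts in the levels of the methylation genes was not tested.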

How the data were processed

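Read pair counts per gene were deposited for 4 libraries. The authors mapped clean reads to mm10 with HISAT2 (2.1.0), filtered on mapping quality with Samtools and counted reads with HTSeq (0.11.2, versions per the labels), and these raw counts were used as deposited. The annotation release and strand setting of the counting are not given in the sources used here. Of 55421 listed genes, 55240 were matched by identifier to GENCODE M21 (mm10), which gave symbols, coordinates and exon lengths. The 5 tally rows, of which pairs in no feature made up 43.2% to 45.9% of a library, were left out.

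Genes passing edgeR's expression filter were fitted with edgeR 4.0.16 in R 4.3.3 (TMM, robust quasi-likelihood, treatment group only), and limma 3.58.1 and DESeq2 1.42.0 served as alternatives. The standard error is the absolute log2 fold change over the square root of F. Replicates differed beyond sampling noise (chi-square per degree of freedom 2.28 with FGF2 and 1.76 without FGF2) and were kept apart. Similar transcripts were sought with BLAST 2.17.0 (at least 100 bases at 95% identity). Start windows came from RefSeq on GRCm38.p6, and 7 of the 9 genes matched. The fits were tested on simulated data with 200 changed genes. The edgeR fit recovered 28 of them at 1.2-fold, 129 at 1.5-fold and 154 at 2-fold, and called 2, 7 and 8 unchanged genes. The simulation changed 200 of 17144 genes, whereas 40.5% of the tested genes were called in the data. Its adjusted threshold was therefore stricter, and these recoveries need not hold for the data. A gene that was not called is still not shown to be unchanged.

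The members, lists and alternatives were chosen with earlier results of these data known. All 9 members and called genes of the lists may be named. Uncalled list genes and markers were picked after their values were seen. A gene that the rule takes is not reported here.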

Additional observations from a re-analysis of the deposited data

How the results depend on the processing

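The 5 lower calls and that of Mbd1 kept direction and side of the threshold under RLE, upper quartile and total count scaling, no filter, at least 10 counts in every library, DESeq2, limma-voom, a threshold of 0.01, the replicate number as a block and each library left out. The log2 fold change of Mbd2 was 0.20 with upper quartile scaling (adjusted p = 0.0705), 0.21 with library totals alone (0.0572) and 0.22 with DESeq2 (0.289), and 0.23 did not pass a threshold of 0.01, so that each of these 4 alternatives left 1 gene called higher in place of 2. Dnmt3b, not called in any fit, turned to -0.018 with upper quartile scaling and to -0.00919 with library totals alone. With each library left out, Mbd2 lay between 0.13 and 0.31, Dnmt3b between -0.20 and 0.17, and the genes called higher were between 1 and 2. Over all genes DESeq2 called 4007 in place of 6949, 2068 higher and 1939 lower. The cause of these differences was not tested. The replicate block left 6814 genes called and changed no call of the 9 genes. The deviations of same-numbered libraries from their group means had a correlation of 1.3e-05 over the tested genes. A single correlation over genes, from 2 libraries per group, cannot tell whether the numbers mark shared preparations. Of 142 other listed genes, 23 lost and 3 gained a call under an alternative that kept all libraries, and 0 called genes changed sign. Dnmt3b, at 45 to 67 counts, is the gene that depth limits.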
